A study of Aspergillus luchuensis with 6 samples.

Results

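Scaffold DF126461.1 is a stretch, with positions 276 to 790066 listed, of the genome of Aspergillus luchuensis mut. kawachii, the fungus of white koji. Between about 684 and 708 kb it holds a block of transcription start sites that are used in a control strain and nearly unused in a strain whose genotype label is a deletion of laeA. Its members are the 500 tag clusters (244 on the plus and 256 on the minus strand) that it holds of 21824 on all scaffolds. Start sites were mapped by CAGE (cap analysis of gene expression), in which a short tag is read from the capped 5′ end of an RNA, so that a tag marks where an RNA starts and the number of tags how often. Positions with at least 0.1 CPM (tags scaled to a library of 1 M) over all libraries were merged with neighbours no farther than 20 bp away on their strand, and merged clusters reaching 1 CPM were kept. Of the 500 clusters, 23 have their midpoint in the block and 477 lie outside it.

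There were 3 libraries of the control strain, labelled ctrl345, and 3 of a strain labelled sirD whose genotype is given as a deletion of laeA, here called the disruptant. The strain label and the genotype label name different things, and neither was checked against the data, so every difference below is one between libraries so labelled. All were total RNA of mycelia from shaken cultures at 30 °C, grown for 36 h in M medium and a further 12 h in CAP medium. Nothing in the labels says whether the libraries of a group came from separate cultures, so p-values measure the spread between these libraries, which may be technical. Nor do they say how the strains are related, so a difference between them cannot be told apart from another difference in strain background. The control libraries held 18.0 to 19.3 M tags and the disruptant libraries 14.8 to 17.3 M. In bulk mycelium, fewer cells that use a site and fewer RNAs per cell cannot be told apart.

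LaeA is a nuclear protein with a methyltransferase-like domain, known in Aspergillus species as a global regulator of secondary metabolism. Fungal genes for the synthesis of a secondary metabolite commonly lie side by side and are switched on and off together, and several such gene clusters are silent when laeA is lost. Many fungal genes are also arranged head to head, with a shared stretch between them from which transcription runs both ways. No annotation of these scaffolds was used here, so no start site is given a gene name, no promoter sequence is shown, and the level of laeA, which would check the genotype label, was not analysed here.

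The block was chosen because its level differs between the strains, so its values are given as a description, without a test. Counting all tags on both strands from 684001 to 708000, the control libraries held 1546, 3640 and 2833 CPM and the disruptant libraries 5.81, 6.64 and 4.75 CPM. Every control library thus lay far above every disruptant library, and the ratio of the means was 466 (2673 ± 1056 against 5.73 ± 0.947 CPM, SD, n = 3 each). Counted in kept clusters alone the ratio was 1069. In control libraries 1, 2 and 3 the block took 0.144%, 0.349% and 0.247% of all tags, with exact 95% binomial intervals of 0.142% to 0.146%, 0.346% to 0.351% and 0.245% to 0.249%. In the disruptants it took 0.000606%, 0.000640% and 0.000424%, with intervals of 0.000495% to 0.000733%, 0.000518% to 0.000783% and 0.000327% to 0.000541%. Intervals and floors cover counting error only.

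Transcription of the block came from 5 strong start sites of at least 20 CPM in the controls, which together held 93.1% of its control tags. Of these, 4 stand head to head in 2 pairs about 10 kb apart, and the fifth lies between the pairs.

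The left pair has its minus-strand cluster at positions 696859 to 696990 and its plus-strand cluster at 697183 to 697407. The minus cluster stood at 198, 398 and 469 CPM in controls 1, 2 and 3 and at 0.221, 0.140 and 0.219 CPM (4, 2 and 3 tags) in disruptants 1, 2 and 3. The plus cluster, the third strongest of the whole scaffold in the controls, stood at 649, 1574 and 933 CPM in controls and at 0.498, 0.349 and 0.365 CPM (9, 5 and 5 tags) in disruptants. Both directions were thus down to single tags in each disruptant library, 1835-fold lower on the minus and 2601-fold lower on the plus strand.

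The right pair is built alike, with a minus cluster at 706825 to 706928 and a plus cluster at 707121 to 707241. The minus cluster stood at 142, 294 and 224 CPM in controls and at 0.277, 0.0699 and 0 CPM (5, 1 and 0 tags) in disruptants. The plus cluster stood at 407, 999 and 1034 CPM in controls and at 0.498, 0.909 and 0.0731 CPM (9, 13 and 1 tags) in disruptants. The ratios of the means were 1902 and 1649.

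What these pairs share was not used to choose them. In each, 192 bp separate the minus from the plus cluster, and the most used start positions of the pooled controls lie 329 bp apart in the left and 289 bp apart in the right pair. In each, the plus side was the stronger in the controls, 2.96 times in the left and 3.70 times in the right pair. Elsewhere on the scaffold, strong clusters stand head to head within 500 bp in 5 combinations of a minus with a plus cluster, with 97 to 490 bp between them. Their log2 fold changes between disruptant and control ran from -0.13 to 0.29.

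The fifth strong site, plus-strand positions 702507 to 702554, was weaker, at 39.1, 64.5 and 49.6 CPM in controls. In disruptants it kept 0.443, 0.280 and 0.365 CPM (8, 4 and 5 tags). It therefore fell 141-fold, and its disruptant level was 0.710% of the control level, where the 4 clusters of the pairs were at 0.0384% to 0.0607%.

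**Figure D1:**
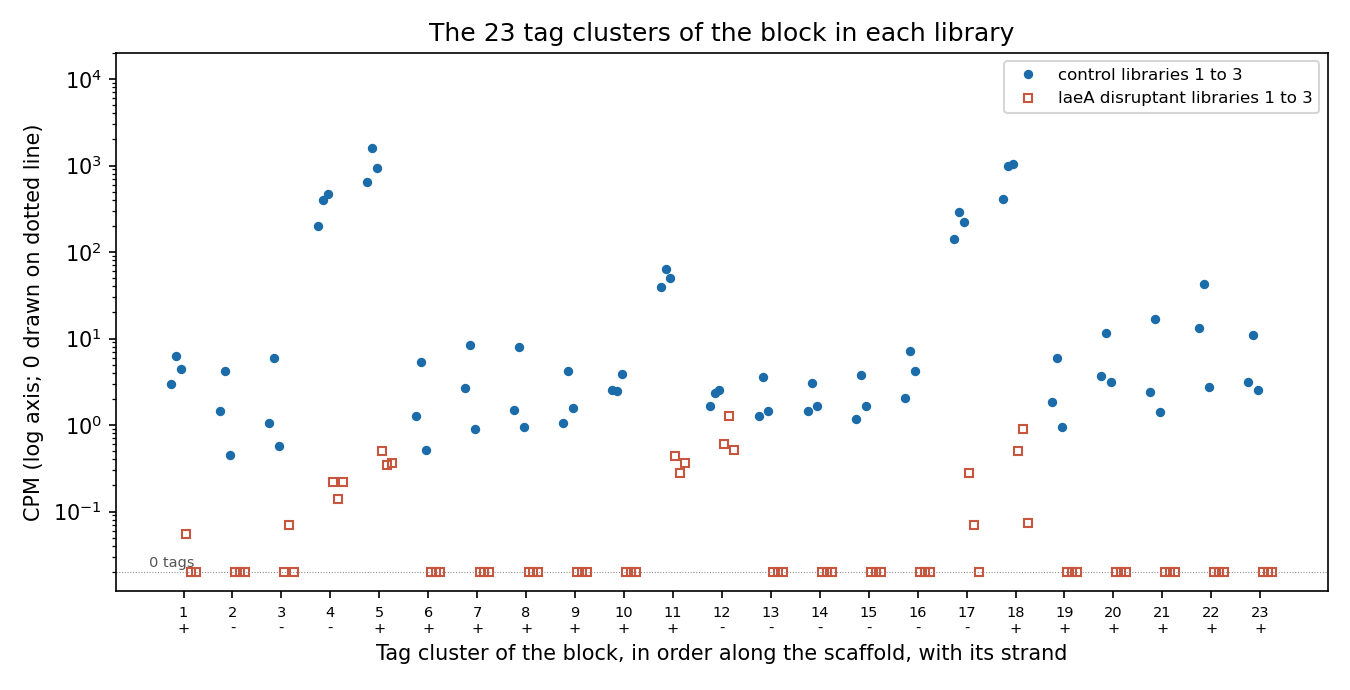
The plot of the block's 23 tag clusters in each library shows CPM on a log axis against the order of the clusters along the scaffold, with each cluster's strand under its number. Filled circles are control libraries 1 to 3 and open squares disruptant libraries 1 to 3, from left to right, and 0 is drawn on the dotted line. Clusters 4, 5, 11, 17 and 18 are the strong ones, 15 clusters have 0 tags in all disruptant libraries, and cluster 12 is the exception that keeps 36.3% of its level.

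The other 18 clusters of the block were weak, at 2.06 to 19.6 CPM in the controls, and 13 of them lie within 1 kb downstream of a strong cluster on its strand. In 15 of them all 3 disruptant libraries had 0 tags. Set against a floor of 3 tags per library, these 15 were at least 10.4-fold to at least 98.7-fold lower. Another 2 kept a single tag each over all disruptants. These were the minus-strand cluster at 696823 to 696827, lower by a ratio of 116 when the disruptant libraries are pooled into 1 count over their summed size (95% counting interval 20.7 to 4562), and the leftmost cluster of the block.

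That leftmost cluster, plus-strand positions 684094 to 684102, is only 9 bp wide and stands alone. It had 3.02, 6.21 and 4.39 CPM in controls and 1, 0 and 0 tags in disruptants, a ratio of 209 by the same pooled measure (95% counting interval 37.5 to 8260). The next cluster of the block begins more than 12 kb to its right.

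A single cluster in the block did not follow the rest. Minus-strand positions 704289 to 704311 had 30, 43 and 40 tags in controls (1.68, 2.32 and 2.54 CPM) and 11, 18 and 7 tags in disruptants (0.609, 1.26 and 0.512 CPM). The groups did not overlap, but the disruptant kept 36.3% of the control level (log2 fold change -1.46, SE 0.42). It lies between the plus cluster at 702507 and the right pair, so a site that remained in use stands inside the silent stretch. Of the block's 23 clusters 20 passed the filter of the test across all clusters, which asks for enough tags in enough libraries, and 19 were called lower. Over all scaffolds 873 of 21803 were called lower (4%), but the block was picked by this contrast, and its count supports nothing.

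The start positions themselves were not used to choose the block. In the pooled controls the tags of the 5 strong clusters spanned 21 to 41 bp from the 10th to the 90th percentile, 3 of them 39 to 41 bp. The 100 strong clusters elsewhere on the scaffold had a median width of 42.5 bp by the same measure, with a range of 1 to 533 bp, so these widths are ordinary. By this measure the narrowest of the 5 was the plus cluster of the right pair, at 21 bp. The minus cluster of the left pair, 39 bp wide, had the largest share of tags at a single position. At position 696917 it had 45.2%, 43.4% and 48.6% of its tags in controls 1, 2 and 3. In its plus partner the most used position was 697246 in controls 1 and 2 and 697258 in control 3, with 17.2% to 20.6% of the tags.

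The few disruptant tags left inside the 5 strong clusters fell mostly on the positions used most in the controls. These clusters held 33.3%, 26.3% and 21.5% of the block's tags in disruptants 1, 2 and 3. In controls 1, 2 and 3 they held 92.8%, 91.5% and 95.6%. Most disruptant tags of the block thus lay outside them and are not covered by this comparison. Over the 5 strong clusters the disruptants held 74 tags in all, of which 64 (86.5%) lay on the 10 strongest control positions of each cluster. These same positions held 81.7% of the 129873 control tags. With so few tags no shift of start position is detectable at this depth.

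Strong clusters do not show where RNA begins at low frequency, so all tags were also counted in 1 kb bins on each strand. Bins with at least 10 control tags and a disruptant level under 10% of the control level are called silent here. Of 792 bins with at least 10 control tags on the scaffold, 29 were silent, 27 of them between 684 and 714 kb. The bins were defined with the same contrast and describe the extent of the block.

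On the minus strand the silent bins ran without a break from 691 to 700 kb. To the left of the left pair's minus cluster, from 691001 to 696858, weak tags amounted to 296, 840 and 346 in controls and to 1, 3 and 0 in disruptants. On the plus strand a silent run went from 706 to 714 kb, well past the last kept cluster of the block at 707503 to 707523. From 707524 to 714000 the controls held 370, 926 and 669 plus-strand tags and the disruptants 0, 5 and 5, which is 0.631% of the control level. By these weak tags the right edge of the block on the plus strand lies near 714 kb rather than at 708 kb. On the minus strand no bin from 708 to 714 kb held more than 3 control tags, too few to show a fall. The plus-strand tags lie downstream of the right pair's plus cluster, and whether they trail that start site was not tested.

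At 714 kb the strains met again. Between 714001 and the next cluster at 716410, plus-strand tags numbered 8, 15 and 16 in controls and 11, 16 and 8 in disruptants, so the libraries overlapped and the means stood at 0.758 ± 0.288 and 0.771 ± 0.301 CPM (SD, n = 3). The disruptant level thus went from 0.631% to 102% of the control level between stretches in which no cluster passes the minimum.

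The left edge was of another kind. Already left of it, from 680778 to 684093, both strands held 78, 133 and 64 tags in controls and 54, 39 and 38 in disruptants. The groups did not overlap in CPM, and the disruptant mean was 54.4% of the control mean (2.83 ± 0.139 against 5.21 ± 1.72, SD, n = 3). In the last minus-strand bin of that stretch, at 683 to 684 kb, it was 22.9% (10, 13 and 9 against 5, 1 and 1 tags). From 687 to 691 kb there was 1 tag in all 6 libraries together. From 684103 to 687000, between the isolated cluster and this empty stretch, both strands together held 27, 51 and 46 tags in controls and 30, 16 and 18 in disruptants. In CPM the groups overlapped there, and the disruptant mean was 56.9% of the control mean (1.36 ± 0.274 against 2.40 ± 0.772, SD, n = 3). The silenced site at the far left is therefore parted from the rest by weak sites that remained in use and by a stretch without tags in either strain.

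**Figure D2:**
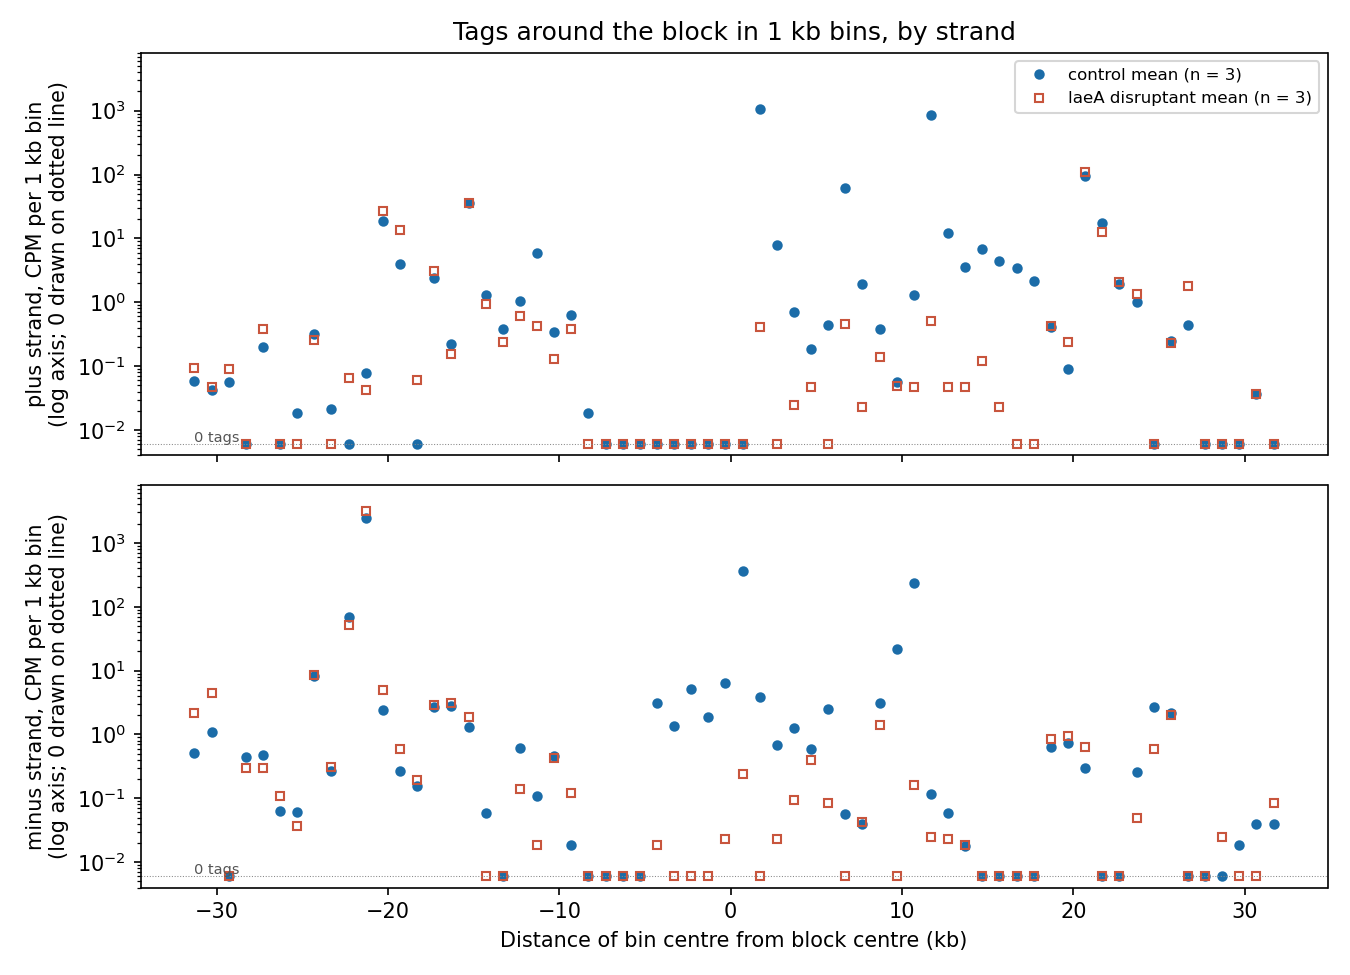
The plot of tags around the block gives CPM per 1 kb bin on a log axis for the plus strand (upper panel) and the minus strand (lower panel), against the distance in kb from the block centre, with 0 drawn on a dotted line. Filled circles are control means and open squares disruptant means of 3 libraries. On both strands the squares drop far below the circles near the centre, on the plus strand the gap reaches farther to the right than on the minus strand, and left of the centre lies a stretch in which both are at 0.

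Inside the span from 684 to 714 kb, 7 bins with at least 10 control tags were not silent. Apart from those at 685 to 687 kb they were on both strands at 700 to 701 kb and at 704 to 705 kb. The minus-strand bin at 700 to 701 kb held 8, 16 and 7 tags in controls and 9, 7 and 3 in disruptants (68.7% of the control level). The minus-strand bin at 704 to 705 kb, which contains the exceptional cluster, held 39, 61 and 58 against 24, 28 and 13 tags (46.2%). The plus-strand bins at these places were lower, at 26.1% (4, 6 and 0 against 0, 1 and 1 tags) and 37.1% (4, 12 and 4 against 1, 1 and 4 tags), on few tags. All 4 lie between strong sites that were nearly silent.

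Clusters under the 1 CPM minimum behaved like their surroundings. The block held 42 of them, with 11 to 88 control tags each, and 37 had 0 tags in all disruptant libraries. None of the 42 had more than 2 tags there. Just right of the block bound, up to 714 kb, 10 of 11 such clusters were at 0 in all disruptants, against 2 of the other 916 on the scaffold. The limit of 714 kb was itself set by this contrast, so these counts support nothing. At the minimum itself, the weakest kept clusters had 1.01 CPM over all libraries (185746 to 185766 on the plus strand, and the single position 191929 on the minus strand). The strongest of those left out had 0.990 CPM (353907 to 353927 and 487047 to 487058, both on the minus strand).

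The 4 kept clusters nearest to the block on each side stood at like levels in both strains. Since the block was bounded where the fall ends, these values are a description. Distances from the block are taken from its outermost kept clusters, not from the silent weak tags that reach 714 kb. On the left, plus-strand positions 680667 to 680777, 3.32 kb from the block, had 26.6, 42.2 and 18.9 CPM in controls and 35.6, 22.9 and 28.9 CPM in disruptants (log2 fold change -0.01, SE 0.31). On the right, the cluster at 716593 to 716701 on the plus strand, 9.07 kb from the block, had 93.4, 87.9 and 61.4 CPM in controls and 101, 91.2 and 90.3 CPM in disruptants (log2 fold change 0.22, SE 0.20). The groups overlapped in both, and the other 6 had log2 fold changes of -0.46 to 0.53.

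Only 9.30 kb to the left of the block lies the strongest start site of the scaffold, minus-strand positions 674610 to 674797. It had 2118, 2153 and 2730 CPM in controls and 2451, 4014 and 2805 CPM in disruptants. The groups overlapped, and the difference did not pass the test (log2 fold change 0.40, SE 0.25; edgeR's quasi-likelihood test, adjusted p = 0.36 after Benjamini and Hochberg, and 0.217 to 0.767 over its alternatives). Close to the silent stretch, the scaffold's strongest site was thus no lower in the disruptant by its mean.

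Within 20 kb of the block, 30 clusters on the left and 6 on the right were tested. The calls were 5 on the left, each of them higher, and 1 on the right, which was lower (edgeR). Over all scaffolds 4.1% of clusters were called higher. Of the 5, 4 lie side by side on the plus strand at 675914 to 676196, opposite to and upstream of the strongest site, and were picked out after their values were seen.

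Of these the cluster at 675974 to 676019 had 2.13, 2.16 and 2.23 CPM in controls and 5.09, 8.04 and 5.26 CPM in disruptants (a rise of 1.49 on the log2 scale with an SE of 0.29, at an adjusted p of 0.0155 by edgeR). The 3 beside it rose from means of 0.489 to 2.22 CPM to means of 2.27 to 4.54 CPM. The fifth, on the minus strand at 664990 to 665013, rose from 0.903 ± 0.395 to 4.68 ± 2.16 CPM (SD, n = 3; edgeR adjusted p = 0.0216). On the right, the minus-strand cluster at 720911 to 720917 fell from 1.89 ± 0.948 to 0.423 ± 0.239 CPM (SD, n = 3; edgeR adjusted p = 0.0407). All 6 rested on few tags, and each lost its call in at least 2 of the 6 fits that left out 1 library. Leaving out control 1 or control 2 ended the call of all 6, each of disruptants 1, 2 and 3 that of 3, and control 3 that of 2. The highest edgeR adjusted p in such a fit was 0.0658 to 0.158.

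The control libraries differed among themselves in the block, a comparison of control values alone. Control 2 was the highest of the 3 in 19 of the 23 block clusters and in 153 of the 477 other clusters of the scaffold. These counts are not alike, since 15 of the 23 passed the 1 CPM minimum on control tags alone and 0 of the 477 did. A weak cluster could thus pass because 1 control was high. Also, 13 of the weak block clusters lie within 1 kb downstream of a strong one and may not vary apart from it. In the 5 strong clusters control 2 exceeded control 1 by 1.65 to 2.45 times and control 3 exceeded it by 1.27 to 2.54 times. In the 100 strong clusters outside the block the median ratios were 0.992 and 1.06, and 9 of the 100 had a ratio of control 2 to control 1 of at least 1.5. The coefficient of variation over the controls was 25.0% to 45.1% in the 5 strong block clusters, and its median was 17.5% in the 100 others, with a range of 2.15% to 99.0%. The strong sites of the block, which lie within about 10 kb, thus all stood lowest in control 1, whatever their strand.

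**Figure D3:**
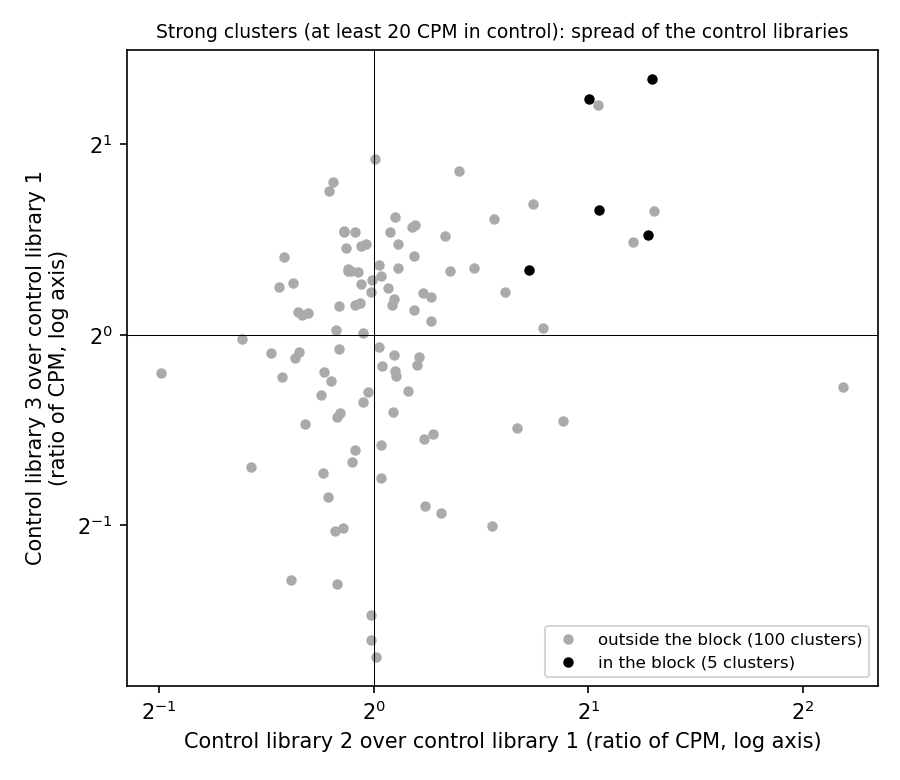
The plot of the control libraries compares, for each cluster of at least 20 CPM in the controls, the CPM ratio of control library 2 to library 1 (horizontal, log axis) with that of library 3 to library 1 (vertical, log axis). Black points are the 5 strong clusters of the block, which all lie in the upper right with both ratios above 1, and grey points the 100 clusters elsewhere, with median ratios of 0.992 and 1.06.

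The weak clusters of the block varied in another way, often with control 3 well under control 2. The site at plus-strand positions 707478 to 707482 had 13.3, 42.7 and 2.73 CPM in controls, while its strong neighbour at 707121 to 707241 had 407, 999 and 1034 CPM. The tags in the 1 kb downstream of a strong cluster, as a percentage of the cluster's own tags, had medians of 8.08%, 8.63% and 2.10% in controls 1, 2 and 3 over the block's 5. Over the 86 clusters elsewhere with no other strong cluster in that kb, the medians were 9.24%, 10.3% and 7.35%. In the disruptants they were 6.66%, 5.31% and 6.48% there. The part of this trailing share in the levels of weak clusters was not tested.

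Outside the block the scaffold did not separate the strains by its share of all tags. Its tags outside the block made up 1.85%, 1.95% and 1.77% of all tags in the controls and 1.98%, 1.88% and 1.65% in the disruptants. The means, 1.86% ± 0.0875 and 1.83% ± 0.165 (SD, n = 3), differed by less than the spread between libraries (exact two-sided permutation p = 1, where the smallest p that 3 against 3 allow is 0.1). In CPM, which uses effective library sizes, the same tags stood at 19887, 20332 and 20348 in controls and at 18960, 19447 and 18506 in disruptants. By that measure the groups did not overlap, with means of 20189 ± 262 and 18971 ± 471 (SD, n = 3), a difference that was not tested. In 10 kb windows, 58 of the 75 windows tested outside the block had a log2 fold change within 0.5 of zero, and the median was -0.07.

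Of these 75 windows 11 were called (edgeR, adjusted p under 0.05), 6 lower and 5 higher, or 14.7%. Over the windows of all scaffolds 15.3% were called, 6.24% lower and 9.09% higher, so the share here is near the background. Without disruptant 2 or disruptant 3 the count was 7 and 6. The 5 windows with a log2 fold change of 1 or more in size were called in all 6 fits that left out 1 library, at edgeR adjusted p of up to 0.0481.

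Of these, 2 adjacent windows rose, from 6.56 ± 0.992 to 15.8 ± 1.07 CPM at 550 to 560 kb and from 2.55 ± 0.817 to 11.9 ± 6.28 CPM at 560 to 570 kb (SD, n = 3). At 580 to 590 kb, 10 kb farther on, the level fell from 7.53 ± 1.23 to 2.74 ± 0.768 CPM (SD, n = 3). The other 2 that fell flank the block at some distance. The window at 650 to 660 kb went from 382 ± 93.0 to 114 ± 32.6 CPM and that at 730 to 740 kb from 45.1 ± 6.91 to 22.4 ± 2.21 CPM (SD, n = 3). Between them and the block lie windows that were not called.

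**Figure D4:**
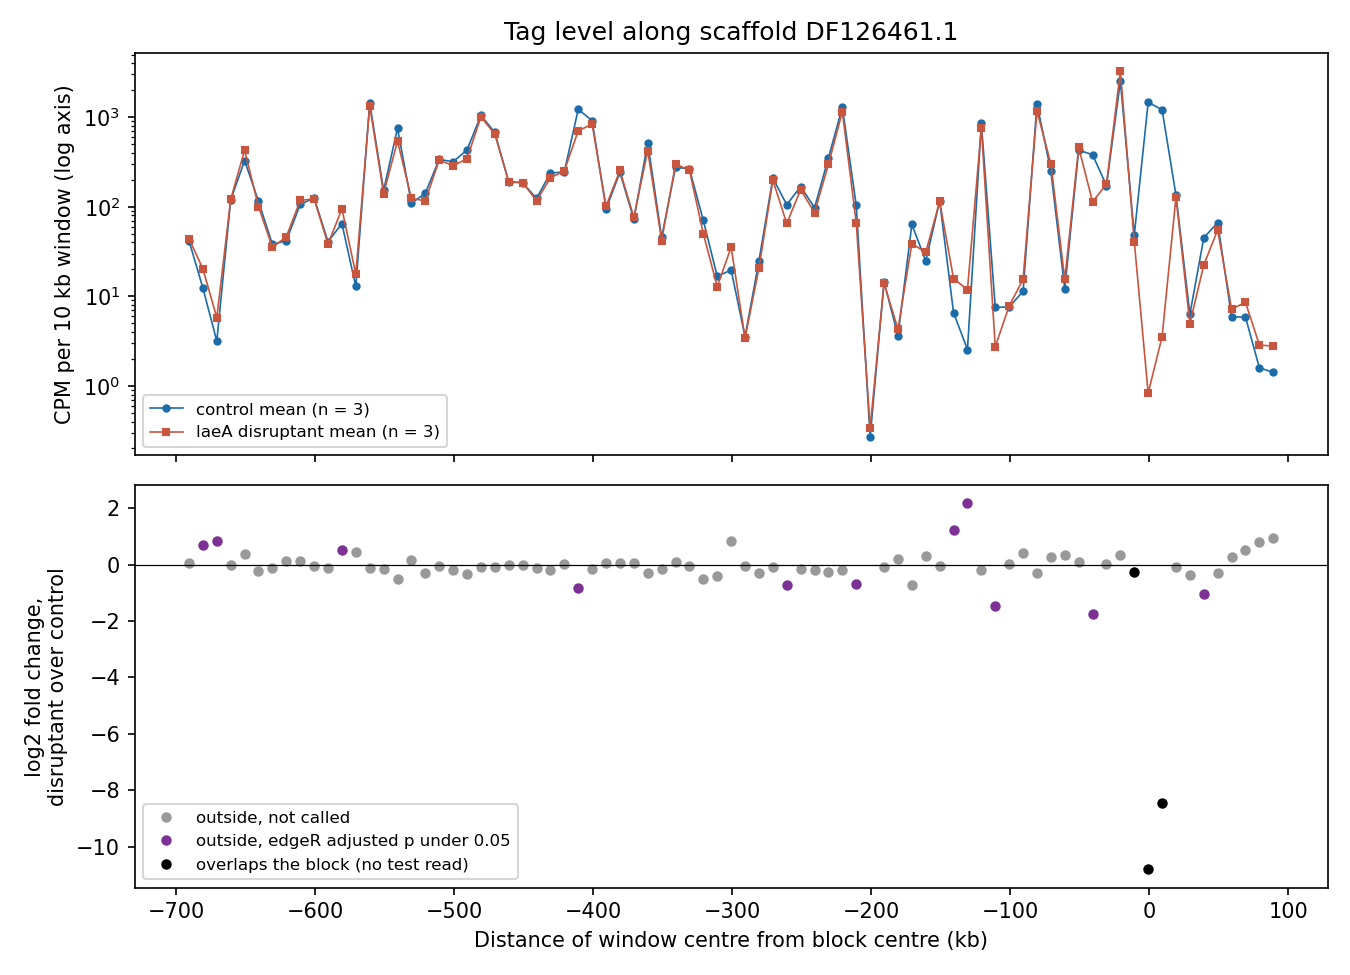
The plot of levels along the scaffold shows, in the upper panel, the mean CPM of 3 control and 3 disruptant libraries in 10 kb windows (log axis) and, in the lower panel, the log2 fold change of disruptant over control, both against the distance in kb from the block centre. At the centre 2 windows fall to log2 fold changes of -10.80 and -8.44, and elsewhere the windows tested lie between -1.77 and 2.17, with purple points for the 11 called outside the block.

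Of 474 clusters tested outside the block, 30 differed (edgeR, adjusted p under 0.05), 15 lower and 15 higher, or 6.33%, against 8.11% of clusters on all scaffolds. The median log2 fold change of the 474 was -0.03 (-0.01 over all scaffolds), and the lowest stood at 14.1% of its control level. The groups did not overlap in 118 of them (24.9%), against 29.3% of clusters tested on all scaffolds. The count depended on single libraries: it was 9 without control 1, 8 without control 2, 12 without disruptant 2 and 10 without disruptant 3.

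The 6 largest rises and 6 largest falls among the calls of at least 5 CPM without overlap between the groups are named here. Of these 12, 4 were called in every alternative that gave a value. The largest fall was at minus-strand positions 650764 to 650868, 33.2 kb left of the block, which went from 268, 135 and 233 CPM in controls to 25.2, 38.4 and 25.9 CPM in disruptants (log2 fold change -2.83, SE 0.31; edgeR adjusted p = 0.00114, at most 0.0137 over its alternatives). All controls stood over 3 times above all disruptants. By the means, this cluster makes up most of the fall of the window at 650 to 660 kb. In controls 1, 2 and 3 it held 4785, 2496 and 3668 of the window's 6350, 8987 and 4803 tags, so in control 2 most of them lay elsewhere.

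The minus-strand cluster at 731695 to 731741, 24.2 kb right of the block, had 28.6, 21.1 and 34.1 CPM in controls and 10.3, 9.92 and 9.50 CPM in disruptants (log2 fold change -1.49, SE 0.23; edgeR adjusted p = 0.00545, at most 0.0435 over its alternatives). The largest rise was at plus-strand positions 566918 to 566961, from 1.79, 1.13 and 1.02 CPM to 4.37, 15.1 and 10.2 CPM (log2 fold change 2.89, SE 0.48; edgeR adjusted p = 0.0079, at most 0.0388). The minus-strand cluster at 271924 to 271966 rose from 1.62, 1.30 and 1.91 CPM to 4.10, 7.06 and 5.99 CPM (log2 fold change 1.82, SE 0.32; edgeR adjusted p = 0.00984, at most 0.0495).

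The other 8 had log2 fold changes of 1.49 to 2.42 (at 48958, 273202, 399678 and 675974, all on the plus strand) and of -1.78 to -1.08 (at 187692, 481377, 481464 and 526153, all on the plus strand). Each lost its call in at least 2 of the 6 fits that left out 1 library, with a highest edgeR adjusted p of 0.0658 to 0.186 over the alternatives. Control 2 was the left-out library for 7 of them, control 1 and disruptant 2 for 6 each, disruptant 3 for 5, disruptant 1 for 3 and control 3 for 2.

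Of the 5 strongest sites of the scaffold in the controls, only that of the block was nearly silent in the disruptant. Plus-strand positions 619078 to 619210 had 801, 1981 and 1259 CPM in controls and 1056, 1354 and 954 CPM in disruptants (edgeR adjusted p = 0.657). Plus-strand positions 211784 to 211951 had 851, 773 and 1238 CPM against 958, 969 and 855 CPM (edgeR adjusted p = 0.933). In both the groups overlapped. Minus-strand positions 283050 to 283109 had 1248, 1058 and 754 CPM against 610, 456 and 489 CPM (log2 fold change -0.98, SE 0.24; edgeR adjusted p = 0.0416). That call was lost without any library but control 3, at adjusted p of up to 0.167. Of the 100 clusters of at least 20 control CPM outside the block, 5 were called, each of them lower, where 8.11% of clusters on all scaffolds were called and 4% called lower. These 100 were picked by a high control level, which favours lower over higher calls.

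**Figure D5:**
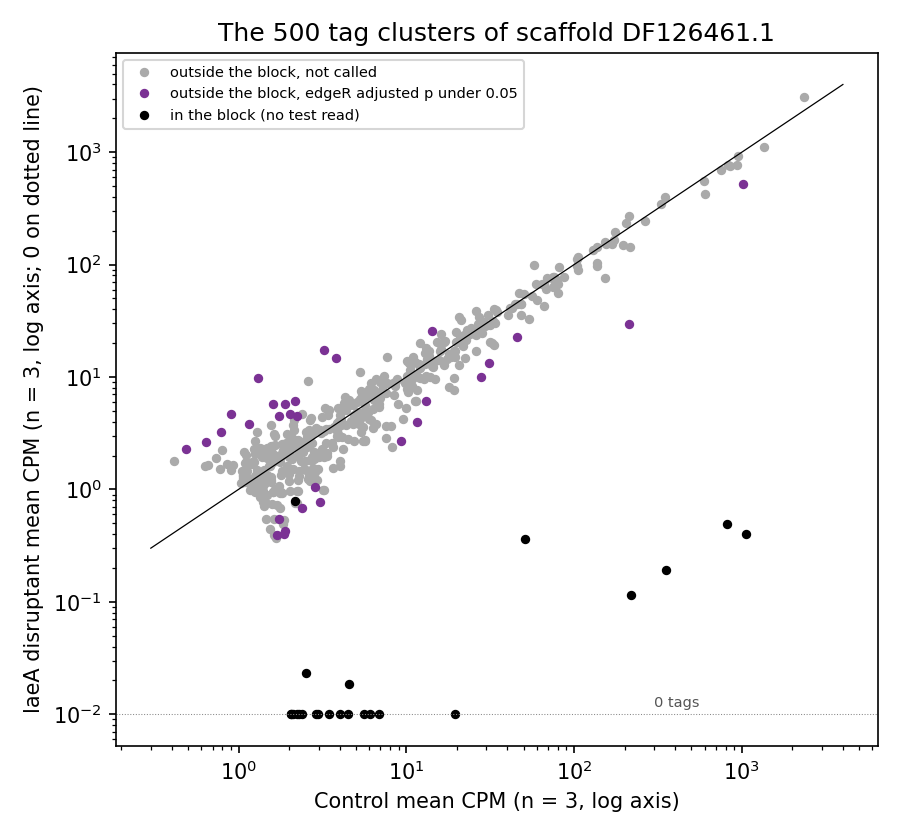
The plot of the scaffold's 500 tag clusters sets the mean CPM of the 3 disruptant libraries against that of the 3 control libraries on log axes, with 0 drawn on a dotted line and the line of equal levels in black. Black points are the 23 clusters of the block, which lie far below the line except the one at 36.3% of its control level, purple points the 30 clusters called outside it, and grey points the rest.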

How the data were processed

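Raw, unscaled tag counts of 6 libraries at 8582186 start positions were deposited by the authors. Per the submitters' processing notes, FastQC, BWA and bedtools were used. Their versions and settings, and how tags that map to several places were treated, are not given in the sources used here. Positions count from 0 in the table and from 1 here, and minus-strand positions may differ by 1 base. The gene table at hand is of another assembly and was not used. The scaffold, block bounds and lists were chosen with earlier results of these data known.

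Cluster and window counts of all scaffolds were fitted with edgeR 4.0.16 in R 4.3.3 (TMM factors, filterByExpr, quasi-likelihood F test, Benjamini-Hochberg over all features, adjusted p under 0.05), and the steps were tested on simulated counts. DESeq2 1.42.0 was an alternative. CPM uses the effective library sizes of the cluster fit (13.7 to 18.5 M), in which 3 tags are 0.162 to 0.219 CPM. SEs come from the log2 fold change and its F statistic. Counting intervals are exact, and tags carry no molecular identifiers. Shares were compared by exact permutation in SciPy 1.17.1. Named clusters are those of the block, 4 at each edge, up to 6 rises and 6 falls outside it and the 5 strongest.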

Additional observations from a re-analysis of the deposited data

How the results depend on the processing

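The count of clusters called outside the block, 30, fell to 9 with positions of at least 0.5 CPM and 5 at an adjusted p under 0.01. It ranged from 8 to 40 across fits that left out 1 library, and DESeq2 gave 40. Of those 30, 15 were lower, a share that went to 19 of 30 with clusters joined at up to 50 bp, 11 of 27 with library size alone. In the block, the 19 calls were 11 with positions of at least 0.5 CPM and 14 to 22 without 1 library. A higher position minimum changes which clusters form, so in and outside the block these calls come from another set of clusters. Some weak block clusters, such as that at 697512 to 697533, had no value with it. All 11 block clusters with an unadjusted edgeR p under 0.05 in that setting were called. The windows called outside the block, 11, were 3 with windows of 20 kb, 20 with 5 kb and 5 at an adjusted p under 0.01, and 6 to 10 without 1 library. The number of windows changes with their size, so the counts at 20 kb and 5 kb are not out of a like total. The difference in the share of tags outside the block (disruptant minus control, -0.0241 percentage points) ranged from -0.0947 to 0.0667 without 1 library and reversed without control 2 (0.0208) and without disruptant 3 (0.0667). The block total, -8.86 on the log2 scale, was -10.06 with kept clusters only, and -9.14 to -8.58 without 1 library. The causes were not tested. Of 666 recomputed values of named clusters, 559 kept their direction or stayed uncalled, 105 lost and 2 gained a call, and 0 called values reversed.

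Same-numbered libraries deviated from their group means with correlations of 0.452, -0.415 and -0.0757. Differently numbered libraries were not correlated, so these mixed values cannot tell whether the numbers pair the libraries. With the replicate block 11 clusters were called outside and 19 in the block, and 9 windows outside it. At 3 tags in each library a fall of a weak cluster of 2 CPM beyond about 10-fold could not be measured.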

Other observations

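Away from the block, 2 of the silent 1 kb bins lay elsewhere on the scaffold. The plus-strand bin at 464 to 465 kb held 8, 47 and 32 tags in controls and 1, 4 and 2 in disruptants, and the minus-strand bin at 407 to 408 kb held 6, 5 and 4 tags in controls and 0, 1 and 0 in disruptants. Of the 927 clusters left out for low level outside the block, 1 had no tag in any control library, the single plus-strand position 722075, with 2, 5 and 5 tags in disruptants.

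Among clusters of at least 500 CPM in the controls outside the block, the plus-strand cluster at 574793 to 574904 varied the most between control libraries, and was picked out after its values were seen. It stood at 1099, 1106 and 340 CPM in controls 1, 2 and 3 and at 1114, 307 and 850 CPM in disruptants 1, 2 and 3, a difference of more than 3 times within each group.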
